A study of Mus musculus with 2 samples.

Results

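The genes described here are 39 enzymes and regulators of glycolysis, the pentose phosphate pathway and the citrate cycle. They were taken by symbol from a table of 20034 genes, and each of the 39 had a row. Their levels were read in single mouse induced macrophages (iMac), which the study made with the transcription factor c-Myc. The labels describe wild type cells that were detached with EDTA and run on the DNBelab C4 droplet system. They name 2 libraries of these cells, a cDNA library and an oligo library, and 1 matrix holds the counts. The barcode names carry no library, so the matrix was treated as 1 sample. It has no replicate, so no p-value was computed and every interval given below covers counting error only. The labels used here give no control group, no other treatment, and no account of the cells the macrophages were made from or of how many clones or cultures were used.

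Glycolysis splits glucose into pyruvate, with hexokinases and phosphofructokinases at its committed early steps, and lactate dehydrogenase turns pyruvate into lactate. The pentose phosphate pathway branches off at glucose 6-phosphate and yields NADPH and ribose phosphate for nucleotides. Pyruvate dehydrogenase feeds the mitochondrial citrate cycle, whose citrate can be drawn off for lipid synthesis or, in activated macrophages, for itaconate. Macrophages stimulated with bacterial products are known for high glycolysis, and Myc is known as a regulator of glycolytic genes in many cell types.

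Of 6837 barcodes, 6751 passed the limits of 500 or more genes and no more than 15% of counts from mitochondrial genes. Kept cells had 1001 to 192369 counts each, with a median of 17178, and 160363508 counts in all. All 16 macrophage markers checked had a level of at least 10 counts per 1000000 counts (CPM), led by Tyrobp at 5699.7 CPM, and together they summed to 13431 CPM. Of 12 fibroblast markers 5 had a row and summed to 2.54 CPM, whereas Col1a1, Col1a2, Col3a1, Dcn, Lum, Thy1 and Prrx1 had no row. Symbols with no row are taken as not counted, which is no measured 0. Neutrophil, T and NK cell, and B cell lists summed to 8.32, 1.52 and 0.380 CPM. The immature myeloid list, led by Prtn3 at 96.3 CPM, summed to 199 CPM.

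The 39 genes together took 1.18% of all counts. Glycolysis and lactate dehydrogenase genes took 0.872%, pentose phosphate genes 0.156%, and pyruvate dehydrogenase and citrate cycle genes 0.153%. At or above 10 CPM were 34 of the 39, against 33.2% of all genes. The 5 below were Pfkm, Pfkfb3, Ldhb, Eno2 and Acod1. The plot of levels along the pathway shows the wide spread within glycolysis.

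**Figure D1:**
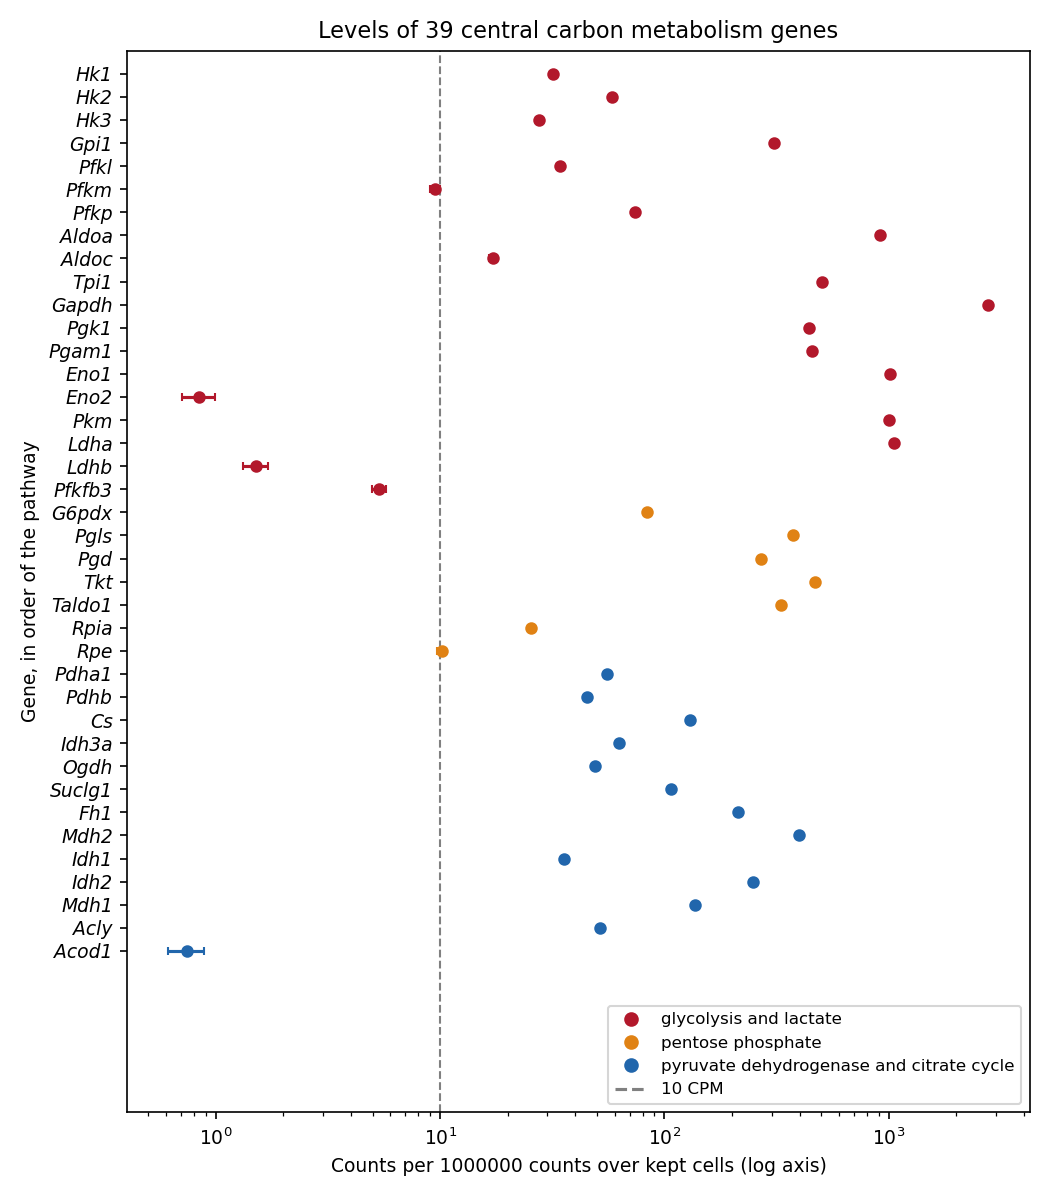
Level of each of the 39 genes, in order of the pathway, as counts per 1000000 counts over 6751 kept cells on a log axis. Bars are exact Poisson intervals at the 95% level and are mostly narrower than the points; the dashed line marks 10 CPM. Gapdh lies farthest right at 2780.1 CPM, and Eno2 and Acod1 lie below 1 CPM.

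In upper glycolysis, the 3 hexokinase genes, which phosphorylate glucose, were low. Hk2 had 58.1 CPM (56.9 to 59.3), Hk1 31.8 CPM (31.0 to 32.7) and Hk3 27.6 CPM (26.8 to 28.4). Gpi1, the isomerase that makes fructose 6-phosphate, stood at 307 CPM. Of the phosphofructokinase genes, Pfkp had 73.9 CPM, Pfkl 34.1 CPM and Pfkm 9.49 CPM (9.02 to 9.98). Pfkfb3, which makes and degrades the activator of phosphofructokinase, had 5.34 CPM (4.99 to 5.71). Aldolase, which splits the hexose, came almost entirely from Aldoa at 911 CPM, with Aldoc at 17.2 CPM. Tpi1, which interconverts the triose phosphates, had 504 CPM.

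Lower glycolysis held the highest levels. Gapdh, which oxidises glyceraldehyde 3-phosphate, had 2780.1 CPM (2772 to 2788) and ranked 79 of all 20034 genes. Ldha, which makes lactate, had 1056 CPM (1051 to 1061), Eno1, the enolase, 1012 CPM (1007 to 1017), and Pkm, the pyruvate kinase gene, 1000.4 CPM (996 to 1005). The intervals of Eno1 and Pkm lay apart by less than 2 CPM, and their neighbours in rank were Ldha above and Aldoa below. Pgam1, the phosphoglycerate mutase, had 454 CPM and Pgk1, the phosphoglycerate kinase, 441 CPM (438 to 444). Ldhb, the other lactate dehydrogenase subunit, had 242 counts in all, or 1.51 CPM (1.33 to 1.71), and Eno2 had 135 counts, or 0.842 CPM (0.706 to 0.996).

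To compare levels between genes per length, each CPM was divided by the length of the gene's longest protein-coding transcript in kilobases. On this scale of CPM per kb Gapdh again led with 1958, followed by Aldoa with 588, Ldha with 582, Eno1 with 499 and Pkm with 411. Hk2, Pfkl, Hk3 and Hk1 followed far below with 10.5, 9.14, 8.58 and 7.44 CPM per kb. Whether counts scale with length in this protocol was not tested.

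The counts of each reaction were then divided among its isozymes. Hk2 gave 49.4% of hexokinase counts (exact Clopper-Pearson interval 48.7 to 50.1), Hk1 27.1% and Hk3 23.5%. Per kilobase the shares were closer, with 39.7% for Hk2, 32.3% for Hk3 and 28.0% for Hk1, so that Hk3 and Hk1 changed places. Pfkp gave 62.9% of phosphofructokinase counts, Pfkl 29.0% and Pfkm 8.08%. The remaining reactions each had 1 main isozyme, with 98.1% of aldolase counts from Aldoa, 99.92% of enolase counts from Eno1 and 99.86% of lactate dehydrogenase counts from Ldha. Within cells at equal depth, isozymes of a reaction were counted together about as often as the product of their shares gives. Hk1 and Hk2 were both counted in 3.05% of cells, against 3.05% for the product, and Hk2 and Hk3 in 2.44% against 2.65%.

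Several members match near-identical transcript sequence of other genes, which can make their counts uncertain. Transcripts of 13 of the 39 genes matched those of another gene at 95% identity or more over at least 300 bases. A counted row existed for such a partner in 5 cases. Eno1b, the partner of Eno1, had 61.2 CPM, and 3 of the 77 partners of Gapdh had rows that summed to 36.4 CPM. Pfkp matched Pitrm1 (25.3 CPM) at 100% over 748 bases, Rpe matched Kansl1l over 558 and Pdha1 matched Map3k15 over 426. Both strands were searched and the strand of a match was not kept. A match can therefore lie on the opposite strand, where a count that reads the strand would keep the genes apart. How the authors' counting split such reads is not given in the sources used here.

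Since Myc induced these cells and binds CACGTG, this hexamer was searched on both strands, where it reads alike, in RefSeq promoter windows of GRCm38.p6 from 250 bases before to 50 after each start. A window was found for 38 of the 39 genes, Idh3a being the exception. Ldha, Ogdh, Pfkfb3 and Pfkm held the hexamer, which is 10.5% of the 38, against 13% of genes at 10 CPM or more and 8.09% of all genes with a window. Ldha is shown whole because it is the highest of the 4 and holds the hexamer at 2 positions, 145 and 48 bases before the start, on chromosome 7 (chr7:46845554-46845853, plus strand). Windows that held it were 1 of 2 for Ldha, 3 of 6 for Ogdh, 1 of 2 for Pfkfb3 and 1 of 4 for Pfkm. Ogdh holds it at a further place in later windows, which is not shown. For Ogdh, Pfkfb3 and Pfkm a stretch of 40 bases around 1 hexamer is given, in capitals in each sequence. These are chr11:6292043-6292082 for Ogdh (plus strand), chr2:11502121-11502160 for Pfkfb3 (minus strand) and chr15:98092436-98092475 for Pfkm (plus strand).
Ldha: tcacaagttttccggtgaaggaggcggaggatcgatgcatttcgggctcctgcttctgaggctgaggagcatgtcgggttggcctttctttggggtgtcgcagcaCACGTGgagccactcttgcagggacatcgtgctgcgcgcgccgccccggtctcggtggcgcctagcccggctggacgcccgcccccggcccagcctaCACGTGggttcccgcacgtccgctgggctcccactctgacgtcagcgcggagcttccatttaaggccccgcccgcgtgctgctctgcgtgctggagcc
Ogdh: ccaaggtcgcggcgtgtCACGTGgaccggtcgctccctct
Pfkfb3: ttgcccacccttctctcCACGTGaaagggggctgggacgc
Pfkm: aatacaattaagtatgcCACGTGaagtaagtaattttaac
The 4 genes differ in level, with Ldha at 1056 CPM, Ogdh at 49.0 CPM and Pfkm and Pfkfb3 below 10 CPM. No binding was measured here, and a match is only a run of letters.

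In the oxidative branch of the pentose phosphate pathway, G6pdx, the glucose 6-phosphate dehydrogenase that opens it, had 83.3 CPM (81.9 to 84.7). The next enzymes were higher, with Pgls, the lactonase, at 372 CPM and Pgd, the phosphogluconate dehydrogenase, at 271 CPM. Per kilobase the order was the same, with 31.4 CPM per kb for G6pdx, 350.5 for Pgls and 122 for Pgd. In the non-oxidative branch, Tkt and Taldo1, which shuffle carbon between sugar phosphates, had 467 and 331 CPM. Rpia, the isomerase that makes ribose 5-phosphate, had 25.4 CPM (24.6 to 26.2), and Rpe, the epimerase, 10.2 CPM (9.67 to 10.7). All 7 pentose phosphate genes reached 10 CPM, and Rpia and Rpe, which interconvert pentose phosphates, were the lowest per kilobase as well, at 13.9 and 3.74 CPM per kb.

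Pyruvate dehydrogenase, which makes acetyl-CoA from pyruvate, was represented by Pdha1 at 55.5 CPM and Pdhb at 45.1 CPM. Citrate synthase (Cs) had 129.9 CPM (128 to 132). Idh3a, a subunit of the NAD-dependent isocitrate dehydrogenase, had 62.4 CPM, and Ogdh, of the oxoglutarate dehydrogenase complex, 49.0 CPM. Later in the cycle Suclg1, of succinyl-CoA ligase, had 107 CPM, Fh1, the fumarase, 213 CPM and Mdh2, the mitochondrial malate dehydrogenase, 399 CPM. Per kilobase, too, Mdh2 was the highest of these cycle genes, at 274 CPM per kb, and Ogdh the lowest, at 11.9. Of the NADP-dependent isocitrate dehydrogenases, mitochondrial Idh2 had 249 CPM and cytosolic Idh1 35.8 CPM. Cytosolic Mdh1 had 136 CPM, and Acly, which splits exported citrate for lipid synthesis, 51.6 CPM. Acod1, which makes itaconate from aconitate, had 119 counts in all, or 0.742 CPM (0.615 to 0.888).

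Of 86 related genes of the same pathways, 78 had a row and 47 reached 10 CPM. Among transporters all 10 did, led by the mitochondrial pyruvate carrier genes Mpc2 (91.1 CPM) and Mpc1 (73.8 CPM) and by Slc25a11 (70.6 CPM). Of other glycolysis and gluconeogenesis enzymes 9 of 27 did, led by Pck2 (122 CPM), Eno1b (61.2 CPM) and G6pc3 (23.9 CPM), whereas Pgk2, Pklr, Fbp2, G6pc and Pck1 had no row. Regulators passed in 5 of 18 cases, led by Tigar (40.3 CPM), Mlx (22.8 CPM) and Pdk1 (20.7 CPM). Of other pentose phosphate enzymes 4 of 8 did, led by the ribose phosphate pyrophosphokinase genes Prps1 (52.3 CPM) and Prps2 (33.9 CPM) and by Dera (35.7 CPM). Other citrate cycle enzymes passed in 19 of 23 cases, led by Sdhb (234 CPM), Idh3g (174 CPM) and Sdhd (160 CPM).

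Shares of cells with a count depend on depth, so cells were thinned to 5000 counts each, which kept 5207 cells and left out 1544 shallower ones. At that depth 16 of the 39 genes had a count in at least 50% of cells, against 3.95% of all genes. The 16 comprised 9 glycolytic genes, 4 pentose phosphate genes (Pgls, Pgd, Tkt and Taldo1) and 3 of the citrate cycle (Mdh2, Idh2 and Fh1). Gapdh was counted in 99.9% of thinned cells and 99.3% of all kept cells. Hk2 was counted in 23.1% of thinned cells (21.9 to 24.3) and 50.7% unthinned, Hk1 in 13.2% and 37.9%, and Hk3 in 11.5% and 30.4%. Free RNA, which was not estimated, can add to such shares.

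Evenness among cells was read by setting each share beside that of Poisson counts of the same mean. Pgk1 was counted in 83.7% of thinned cells, against 88.5% for Poisson counts, and Fh1 in 58.6% against 63.1%. Tpi1 stood at 89.3% against 92.7%, and Hk3 at 11.5% against 12.9%. For G6pdx, in contrast, the shares were 33.7% and 34.1%. The variance of thinned counts was 1.82 times the mean for Gapdh, 1.5 for Pgk1, 1.31 for Hk3 and 1.04 for G6pdx. The median of this ratio over all genes at 10 CPM or more was 1.08. At equal relative variation the ratio rises with the mean, which was 14.2 thinned counts per cell for Gapdh and 0.138 for Hk3. These ratios therefore do not order genes of different level by evenness. Among the members the ratio was highest for Acod1, at 4.13.

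**Figure D2:**
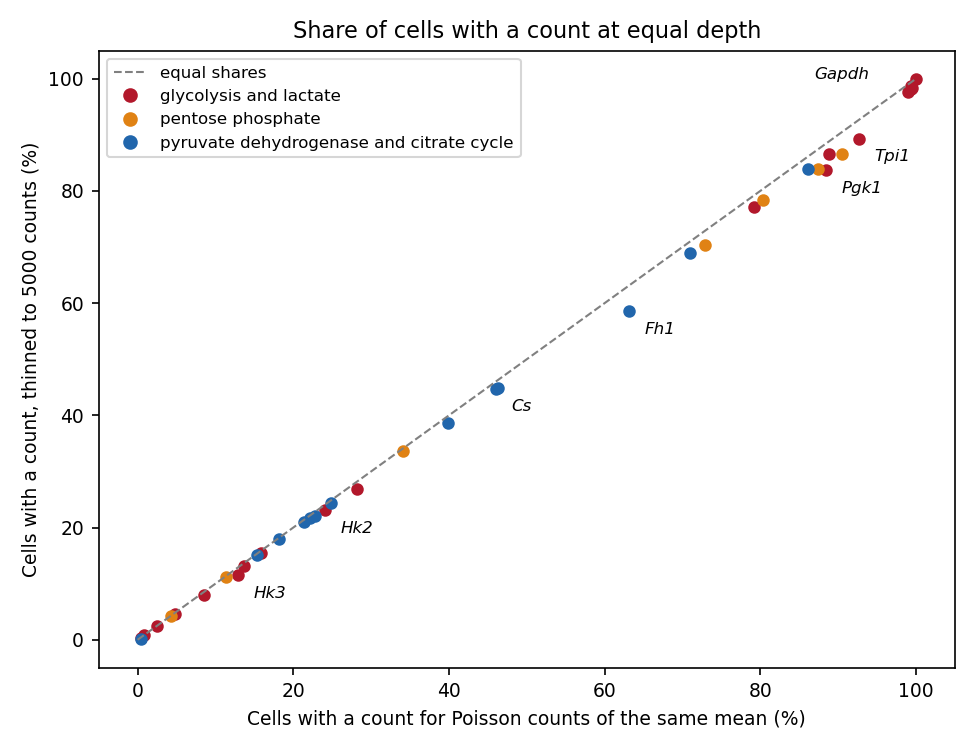
Share of cells with a count after thinning to 5000 counts (vertical axis, %) against the share for Poisson counts of the same mean (horizontal axis, %), one point per gene of the 39. Points below the dashed line were counted in fewer cells than an even spread gives, as for Pgk1 (83.7% against 88.5%) and Fh1 (58.6% against 63.1%).

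Over the 5207 thinned cells, correlations between members were weak. The median Pearson r of 561 pairs was 0.0194, and 5 pairs reached 0.2. Gapdh and Eno1 had the highest, at 0.243. The genes most like Gapdh were Rps2 (0.313), Rplp0 (0.289) and Ppia (0.274). Ldha was most like Eno1 (0.231), Gapdh (0.221) and Ybx1 (0.192), and Eno1 most like Ptma (0.246), Gapdh (0.243) and Ldha (0.231). All cells share 1 matrix and 1 depth, and such weak values in sparse counts are given as a description only.

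Cells were clustered with the 39 genes and the related genes left out, which gave 9 clusters numbered by size. Genes that vary with the members still shaped the clusters, so the cluster contrasts below depend in part on how the cells were clustered. Cluster 1 (1462 cells) was led by histone genes such as Hist1h1b and Hist1h1e, cluster 2 (1346 cells) by Ms4a7, Folr2, Fcgr4, Timp2 and Fabp4, and cluster 3 (1158 cells) by Ly6c2, Prtn3, Ccr2, Ung and Hp. Cluster 4 (883 cells), led by Gas8, Ing2, Slbp, Ppid and Tdp2, was shallow, with a median of 1756 counts per cell. Cluster 5 (723 cells) was led by Bc1, 1700034P13Rik, Cfap44, Dennd5b and Gm29666, cluster 6 (581 cells) by Malat1, Neat1, Pde4d, Pvt1 and Lrmda, and cluster 7 (540 cells) by other histone genes such as Hist1h4h and Hist1h4d. Clusters 8 (33 cells, led by Isg15, Irf7, Ifi204 and Slfn5) and 9 (25 cells, led by Gm26917, Malat1 and mt-Nd5) were small. In each cluster 10 to 16 of 16 macrophage markers, and no fibroblast marker, were counted in 10% or more of its cells. Fibroblast markers summed to at most 5.17 CPM in a cluster. No doublet caller was run, so doublets were left in.

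Among the 7 clusters of at least 100 cells, 12 of the 34 genes at 10 CPM or more differed by at least 2-fold between the highest and lowest cluster. This compares with 50.2% of all 6656 genes at 10 CPM or more. In this and every cluster and Myc contrast below, all genes means genes at 10 CPM or more. The median ratio was 1.69 for the 34 and 2.0 for all genes. The widest was Hk3, with a ratio of 3.86, followed by Idh1 with 3.01 and Rpe with 2.96. Ogdh was the narrowest, with 1.23, and Pgd, Taldo1 and G6pdx followed with 1.41, 1.42 and 1.45. The 9 others past 2-fold were Hk1, Hk2, Pfkp, Pgk1, Pdha1, Pdhb, Idh3a, Fh1 and Mdh1. For 22 of the 34 the highest cluster was cluster 4, and without it 8 of the 34 passed, against 45.9% of all genes. With CPM taken outside ribosomal protein genes, mitochondrial genes and transcripts at rRNA loci, which held 39.5% of counts, 5 passed (Hk3, Pgls, Rpe, Pdhb and Idh1), against 40.9%.

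**Figure D3:**
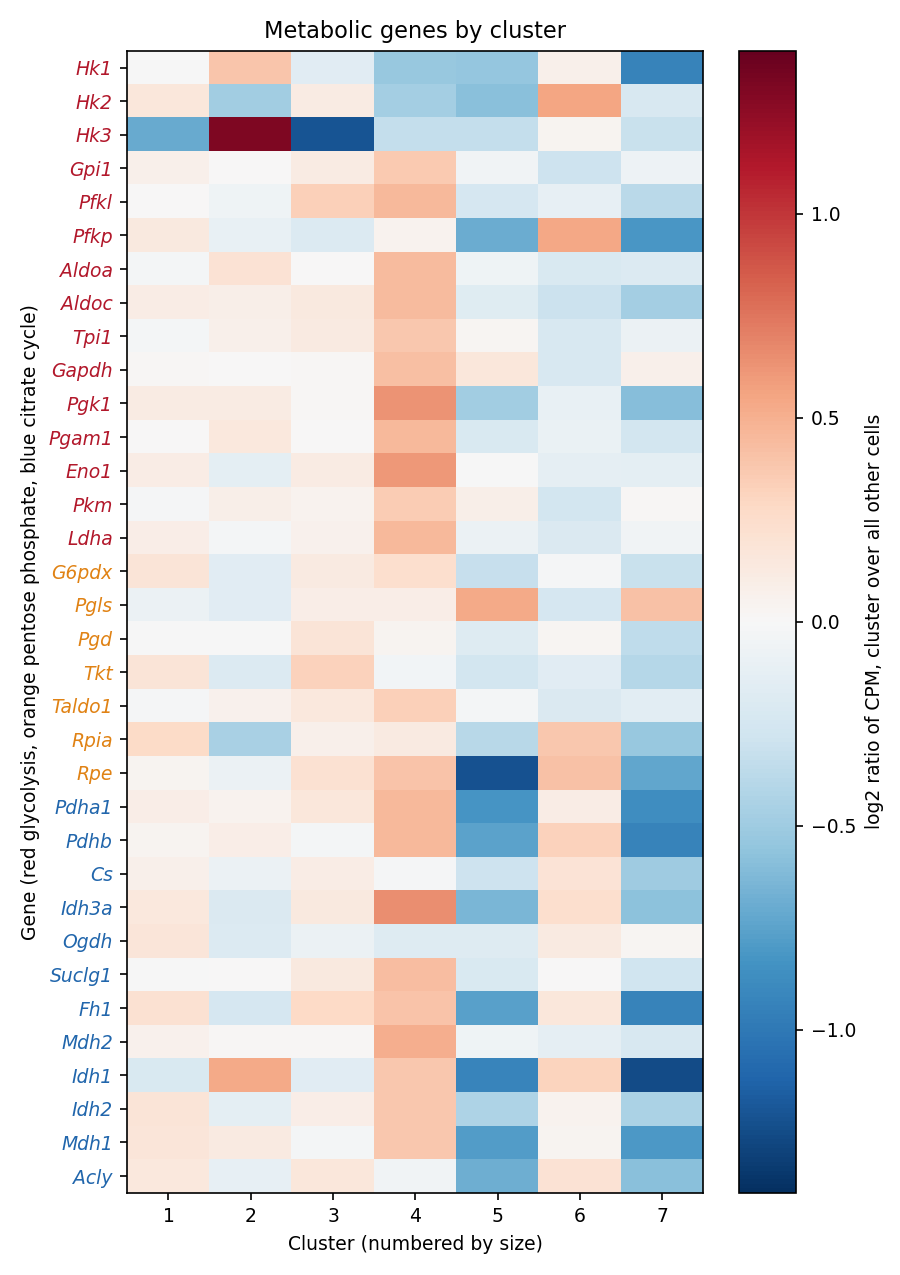
Colour gives the log2 ratio of CPM between a cluster and all other cells, for the 34 genes at 10 CPM or more (rows, in pathway order) and the 7 clusters of at least 100 cells (columns). Hk3 is darkest red in cluster 2 and blue in clusters 1 and 3, and Pdha1, Pdhb, Fh1, Idh1 and Mdh1 are blue in clusters 5 and 7.

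Hk3, a hexokinase typical of myeloid cells (GRCm38 chr13:55005985-55021385, minus strand, 19 exons), was the only one of the 34 past 1.5-fold in clusters 1, 2 and 3. It had 51.1 CPM (48.9 to 53.4) in cluster 2 and 12.5 CPM (11.1 to 14.0) in cluster 3. In clusters 1, 4, 5, 6 and 7 it had 19.2, 21.8, 22.0, 28.4 and 22.3 CPM. Cluster 2 was thus high and cluster 3 low, and their intervals did not overlap those of any other of the 7 clusters. Against all other cells Hk3 was 1 of 34 higher in cluster 2 (4.85% of all genes), 1 of 34 lower in cluster 3 (5.5%) and 1 of 34 lower in cluster 1 (1.79%). The log2 ratio in cluster 1 fell short of the fold with a pseudocount of 10 CPM, at -0.52. No other member passed in either direction there, where 5.15% of all genes were lower in cluster 2, 0.586% higher in cluster 3 and 2.39% higher in cluster 1.

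The other hexokinases took a different order. Hk2 had 44.4 CPM in cluster 2 and 62.1 CPM in cluster 3, and among the 7 large clusters was highest in cluster 6 at 80.6 CPM. Among these Hk1 ranged from 16.6 CPM in cluster 7 to 38.96 CPM in cluster 2. Hk3 gave 38.0% of hexokinase counts in cluster 2 (36.7 to 39.3) and 12.1% in cluster 3 (10.8 to 13.5), whereas Hk2 gave 33.0% and 60.0% (31.8 to 34.3 and 58.0 to 61.9). Hk1 held 29.0% and 28.0%. Cluster 2 was the only one of the 7 large clusters in which Hk3 outnumbered Hk2.

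**Figure D4:**
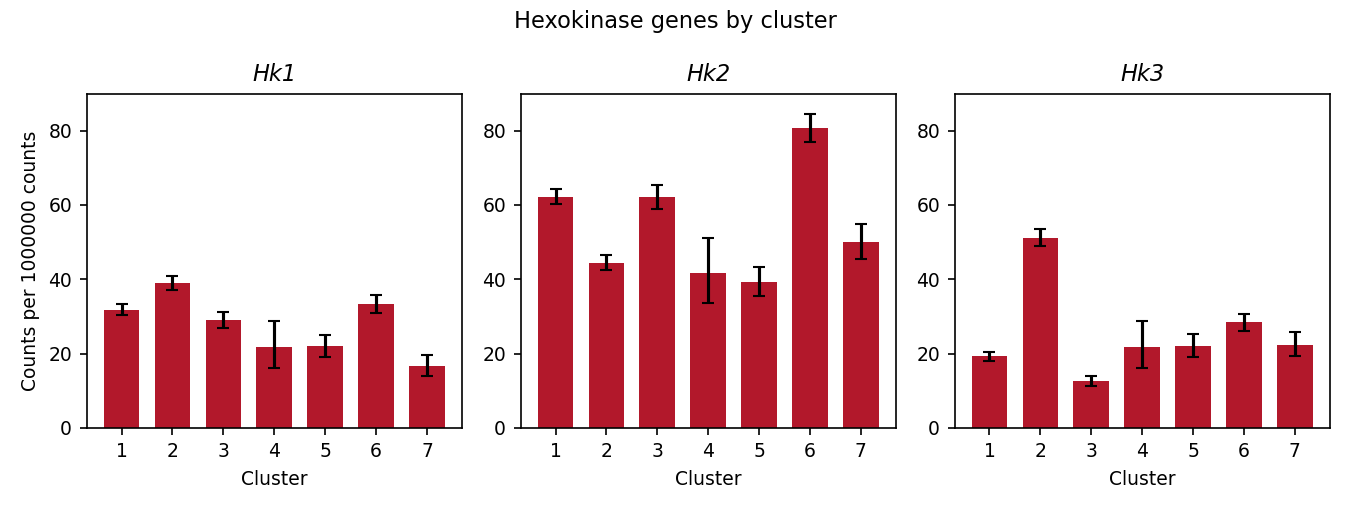
Counts per 1000000 counts of the 3 hexokinase genes in the 7 clusters of at least 100 cells. Bars start at 0 and error bars are exact Poisson intervals at the 95% level. Hk3 is highest in cluster 2 at 51.1 CPM and lowest in cluster 3 at 12.5 CPM, whereas Hk2 is highest of the 7 in cluster 6 at 80.6 CPM.

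Cluster 2 was then set against cluster 3, a pair chosen after these values had been seen. Hk3 was higher by a log2 ratio of 1.95 (exact interval 1.85 to 2.21, taken without the pseudocount) and ranked 38 of 6656 genes. It was 1 of 34 past 1.5-fold higher (7.47% of all genes), and 0 of 34 were past it lower (2.6%). The next members were Idh1 (0.52) and Hk1 (0.42) upward and Hk2 (-0.47), Rpia, Tkt and Fh1 (-0.42, -0.42 and -0.41) downward. The median log2 ratio was -0.09 for the 34 and -0.01 for all genes. Macrophage markers summed to 16656 CPM in cluster 2 and 12244 CPM in cluster 3, and immature myeloid markers to 98.4 and 382 CPM. S phase markers summed to 773 and 1031 CPM, G2 and M phase markers to 527 and 532 CPM, and median depth was 25750.5 and 17203 counts. The part of these in the Hk3 values was not tested. Over cells, the genes most like Hk3 were Ctsb (0.212), Spp1 (0.203) and Timp2 (0.197), whereas r was 0.0106 with Hk1 and -0.0159 with Hk2.

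Since Hk3 varied most, its promoter window is shown whole, at chr13:55021336-55021635 on the minus strand. Chosen after these values had been seen, GAGGAAG, a purine-rich run with the GGAA core of ETS factors such as the myeloid regulator PU.1, was searched on both strands. It is marked in capitals in its reverse form, 211 bases before the start. Only this run was searched, and other GGAA cores in the window, on either strand, are not marked.
Hk3: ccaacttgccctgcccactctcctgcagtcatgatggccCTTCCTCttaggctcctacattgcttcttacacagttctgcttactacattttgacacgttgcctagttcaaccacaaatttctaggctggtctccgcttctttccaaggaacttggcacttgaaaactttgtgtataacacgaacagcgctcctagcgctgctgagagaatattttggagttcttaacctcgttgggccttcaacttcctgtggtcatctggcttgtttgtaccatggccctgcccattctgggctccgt
Aldoa, Hk1, Pdhb, Pfkm, Pgam1 and Rpe also held GAGGAAG on either strand. That makes 18.4% of the 38 genes with a window, against 16.3% of genes at 10 CPM or more and 15.4% of all genes with a window.

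In the shallow cluster 4, 3 of 34 genes were past 1.5-fold higher (3.37% of all genes) and 0 lower (7.6%). Pgk1 had 679 CPM (645 to 714) against 438 in other cells, Eno1 1531 CPM (1479 to 1583) against 1005 and Idh3a 98.0 CPM (85.4 to 112) against 61.9. The median log2 ratio was 0.42 over glycolytic genes and 0.39 over pyruvate dehydrogenase and citrate cycle genes. It was 0.12 over pentose phosphate genes, 0.38 over the 34 genes together and 0.07 over all genes. On the CPM scale outside ribosomal protein, mitochondrial and rRNA-locus genes, 0 were past the fold higher and Hk1 was lower, against 1.32% and 10.5% of all genes. Related genes past 1.5-fold included Got1 (62.2 against 38.2 CPM) and Eno1b (93.5 against 60.7 CPM) upward and Gpd2 (13.6 against 23.3 CPM) and Slc2a3 (9.99 against 16.6 CPM) downward. Of the 883 cells, 78 reached 5000 counts.

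In clusters 5 and 7 a part of the members was lower, together with a larger share of all genes. In cluster 5, 9 of 34 were past 1.5-fold lower (41.7% of all genes) and 0 higher (0.481%). These were Pfkp, Rpe, Pdha1, Pdhb, Idh3a, Fh1, Idh1, Mdh1 and Acly. Fh1 had 129 CPM (122 to 136) against 219 in other cells, and Idh1 18.9 CPM (16.3 to 21.9) against 36.9. In cluster 7, 9 of 34 were lower (43.2%) and 0 higher (0.916%), namely Hk1, Pfkp, Pgk1, Rpe, Pdha1, Pdhb, Fh1, Idh1 and Mdh1. There Fh1 had 114 CPM (107 to 122) against 219 and Idh1 14.9 CPM (12.5 to 17.8) against 37.0. Of the related genes, 17 of 47 were lower in cluster 5 and 18 of 47 in cluster 7, with 0 higher in either. With a pseudocount of 10 CPM, Rpe, Idh3a and Acly in cluster 5 and Pgk1 and Rpe in cluster 7 were not past the fold.

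Within these clusters the pathways differed in their medians. Pyruvate dehydrogenase and citrate cycle genes had median log2 ratios of -0.66 in cluster 5 and -0.58 in cluster 7. For glycolytic genes these were -0.17 and -0.23, and for all genes -0.46 and -0.50. Ribosomal protein, mitochondrial and rRNA-locus genes held 47.0% and 48.2% of counts in clusters 5 and 7, against 34.6% to 41.1% in the other large clusters. With those genes outside the scale the median of all genes moved to -0.27 and -0.28, that of citrate cycle genes to -0.47 and -0.35, and that of glycolytic genes to 0.02 and 0.00. On that scale Rpe, Pdha1 and Idh1 were past the fold lower in cluster 5 (30.8% of all genes) and Pgls higher (3.16%). In cluster 7, Hk1, Pfkp, Pdha1, Pdhb, Fh1 and Idh1 were lower (28.8%) and Pgls higher (3.34%). Pgls itself had 525 CPM in cluster 5 and 485 CPM in cluster 7, against 323 to 398 CPM in the other 5 large clusters.

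Transcript length moved with these cluster contrasts. Across 6624 genes, Spearman's rho between transcript length and the log2 ratio was -0.534 in cluster 5 and -0.511 in cluster 7, and across the 34 members -0.447 and -0.344. For cluster 4, rho was -0.359 across genes and -0.49 across the 34 members. Genes are not independent replicates, and these are descriptions. The median length was 2367 bases for the members and 2853.5 bases for the 6624 genes. The part of length in the member values was not tested.

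Cluster 6 had the opposite relation with length (0.548 across genes), and 24.2% of all genes were past 1.5-fold higher in it and 1.1% lower. None of the 34 members passed in either direction. Hk2 at 80.6 CPM, Pfkp at 101 CPM, Rpia, Cs, Ogdh and Acly were at their highest there among the 7 large clusters, whereas Gapdh, Ldha, Pkm, Aldoa, Tpi1, Gpi1, Pgls and Taldo1 were at their lowest. Gapdh had 2419.8 CPM there, Ldha 937 CPM and Pkm 855 CPM. Among related genes 4 of 47 were past the fold higher and 0 lower. They included the glucose transporter gene Slc2a3 (36.4 against 13.4 CPM), Rbks (16.8 against 10.5 CPM) and Dlst (102 against 67.0 CPM). Malat1, a nuclear RNA, had 1320.3 CPM in cluster 6 and 16.2 to 73.1 CPM in the other large clusters. G2 and M phase markers summed to 2467 CPM there, against 527 to 1625 CPM in those clusters, and the part of either in the values was not tested.

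In the small clusters counting error was wide. Cluster 8 had Hk1 at 54.9 CPM (36.5 to 79.3) against 31.7 and Pfkp at 129 CPM (100 to 164) against 73.7, which were 2 of 34 past 1.5-fold higher (7.59% of all genes). Rpia and Idh3a were lower, 2 of 34 (20.6%), with 6 and 16 counts. Among related genes the transporter genes Slc2a6 (127 against 53.5 CPM) and Slc2a1 (27.4 against 13.6 CPM) and the phosphoglucomutase gene Pgm1 (37.2 against 18.7 CPM) were past the fold higher, and Slc25a10 was among the 8 past it lower. Cluster 9 had 28 of 34 past the fold lower (58.2% of all genes) and Hk2 higher, with 12 counts (18.6%). The 39 genes took 0.283% of its counts, and 7.70% of counts in its median cell were mitochondrial. On the CPM scale outside ribosomal protein, mitochondrial and rRNA-locus genes, 4 of 34 were higher (29.1% of all genes) and 24 lower (45.3%) in it. Macrophage markers summed to 1968 CPM in it. Pfkl, Aldoc, Rpe and Pdhb had 0 counts there, which allows up to 27.7 CPM each by the limit of 3 counts and up to 34.1 CPM by the exact interval.

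Acod1, the itaconate enzyme known as strongly induced in activated macrophages (GRCm38 chr14:103046977-103056573, plus strand, 5 exons), was rare and uneven. Its 119 counts came from 36 cells, of which 24 had 1 count, and 6 cells with at least 5 counts held 82 of them. Of the 119, 77 lay in cluster 8, the cluster led by interferon-induced genes. Of its 33 cells 7 had a count, with 1, 2, 6, 7, 13, 19 and 29 counts, which is 21.2% (8.98 to 38.9). Elsewhere 29 of 6718 cells had a count, or 0.432% (0.289 to 0.619). In CPM the level was 151 (119 to 189) in cluster 8 and 0.263 (0.189 to 0.355) in the other cells. Without the highest cell it was 102 CPM in cluster 8.

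Median depth was 7692 counts per cell in cluster 8 and 17237.5 elsewhere. The 7 cells with a count had 11733 to 70769 counts, and all 36 such cells had a median of 37602.5. The part of depth in the Acod1 shares was not tested. In clusters 2 and 1 Acod1 had 18 and 11 counts in 10 and 9 cells, and cluster 7 had 7 counts in 5 cells. The cluster was singled out after these values had been seen, and other clusterings moved its borders. At a resolution of 0.3 the cells were part of a cluster of 1372 cells led by Ms4a7, which held 95 of the 119 counts. At a resolution of 1.0 a cluster of 290 cells led by Ms4a7, Folr2 and Isg15 held 79, at 9.0 CPM. The latter cluster also had Hk3 at 93.3 CPM, and the ratio between the highest and lowest cluster for Hk3 was then 8.06.

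As c-Myc made these cells, the genes were compared between cells with and without Myc counts. After thinning to 5000 counts, 135 cells had at least 2 Myc counts and 4374 had 0. Myc itself had 40.2 CPM over the kept cells, so few Myc counts are drawn per cell at this depth. Sampling alone can then place a cell in either group, and how far the groups differ in Myc level was not tested. These contrasts therefore cannot decide whether the genes follow Myc. Of the 34 genes 0 were past 1.5-fold higher (10.2% of all genes). Hk1 was past it lower, 1 of 34 (5.59%), with 14.8 CPM (7.10 to 27.2, from 10 counts) against 30.1 CPM (27.8 to 32.5). With cells thinned to 10000 counts, which left 321 and 3079 cells, the log2 ratio of Hk1 was 0.11 in place of -0.98. Above 0 were 16 of 34 log2 ratios, against 55.5% of all genes, with a median of -0.01 for the 34 and 0.06 for all genes. At 10000 counts 23 of 34 were above 0, against 60.3% of all genes, with medians of 0.03 and 0.07.

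The medians of the pathways lay on different sides of 0, by values under 1.5-fold. Of 15 glycolytic genes 3 were above 0, with a median log2 ratio of -0.08. Gapdh had 2609 CPM (2488 to 2734) in cells with at least 2 Myc counts and 2859 CPM (2837 to 2882) in cells with 0. Ldha had 1058 CPM (982 to 1138) and 1063 CPM (1049.5 to 1077), so its intervals overlapped. Of 7 pentose phosphate genes 4 were above 0, with a median of 0.24, and Tkt had 544 CPM (489 to 602) against 460.3 CPM (451 to 469). Of 12 citrate cycle genes 9 were above 0, with a median of 0.08. Apart from Hk1, the exact interval of the log2 ratio excluded 0 for Gapdh and Tpi1, which were lower, and for Tkt, which was higher, among the 34. For Hk2 the intervals of the levels overlapped, at 66.7 CPM (48.6 to 89.2) and 53.8 CPM (50.8 to 57.0).

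Among 47 related genes, 2 were past 1.5-fold higher (10.2% of all genes) and 5 lower (5.59%). Suclg2, a subunit of succinyl-CoA ligase, was among the higher ones, with 66.7 against 39.5 CPM. The pyruvate carrier genes Mpc1 and Mpc2 were lower, with 44.4 against 71.9 CPM and 62.2 against 94.5 CPM. Pgam5, Pdk3 and Rbks were lower on 5, 5 and 3 counts. Macrophage markers summed to 11464 CPM in cells with at least 2 Myc counts and 13937 CPM in cells with 0, and immature myeloid markers to 298 and 205 CPM. G2 and M phase markers summed to 1178 and 1006 CPM and S phase markers to 1037 and 972 CPM, and their part in these values was not tested. When the groups were compared within clusters 1, 3 and 6, 0 of 34 were past the fold higher (5.03% of all genes) and 3 lower (16.2%). The 3 were Hk1, Hk3 and Idh1, with mean log2 ratios of -2.3, -1.09 and -0.84. These means rest on 40, 44 and 20 cells with at least 2 Myc counts in clusters 1, 3 and 6. Over all cells with at least 2 Myc counts, these genes had 10, 14 and 18 counts. Counting error and the pseudocount therefore weigh heavily on the means.

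**Figure D5:**
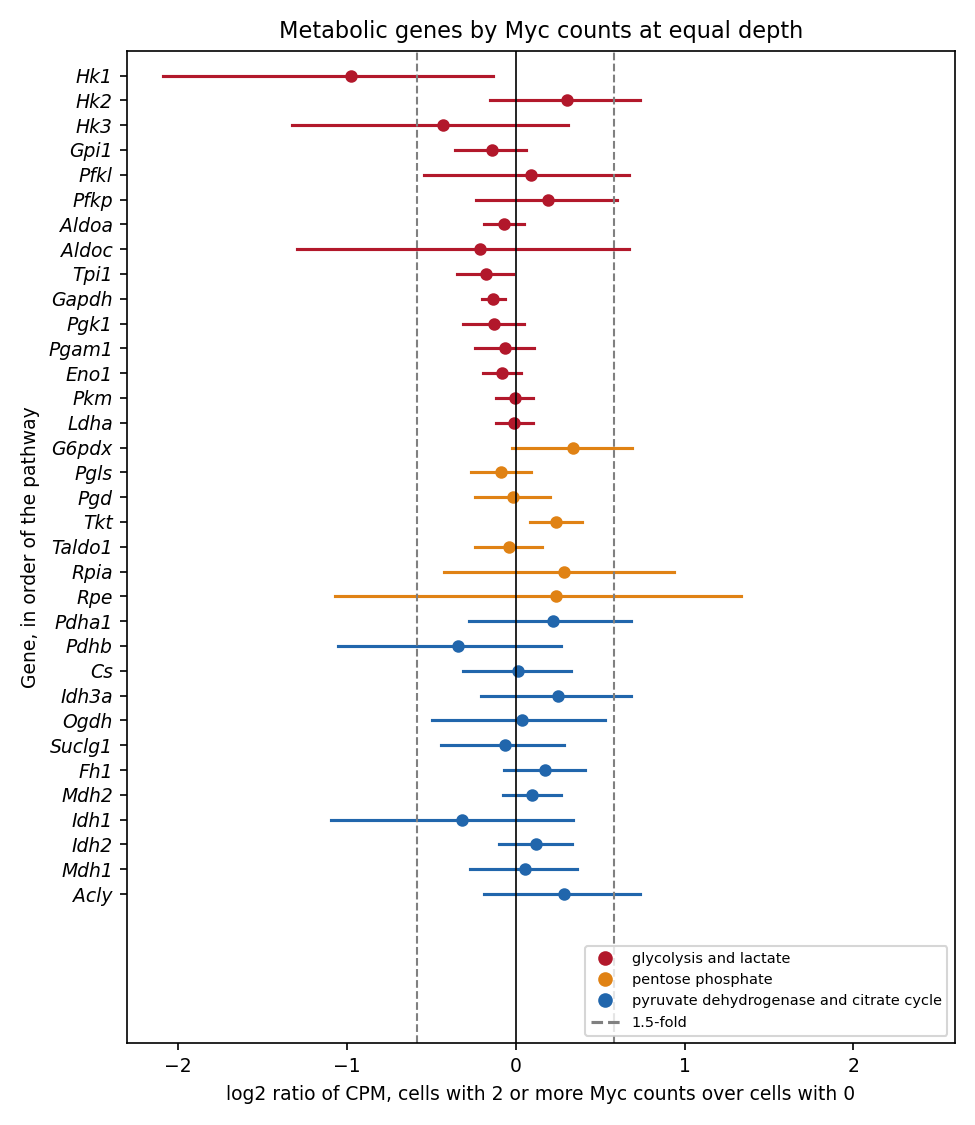
Log2 ratio of CPM between 135 cells with at least 2 Myc counts and 4374 cells with 0, all thinned to 5000 counts, for the 34 genes at 10 CPM or more in pathway order. Lines are exact intervals of the ratio of counts at the 95% level, taken without the pseudocount that the points include, and dashed lines mark 1.5-fold. Hk1, at -0.98, is the only point past a dashed line.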

How the data were processed

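Single-cell RNA counts of wild type induced macrophages were read from 1 matrix, which the labels tie to 2 libraries. The deposited values are raw counts per gene and barcode, written with PISA version 0.12 per the file headers. The submitters' processing notes also name Cell Ranger and mm10, without saying for which step. Which aligner, annotation and cell calling were used, and whether molecules or reads were counted, is not given in the sources used here. If they are of reads, the intervals are too narrow.

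Levels are counts summed over kept cells per 1000000 counts, with exact Poisson intervals, and shares have Clopper-Pearson intervals (95%). Log2 ratios used a pseudocount of 1 CPM. Clusters came from scanpy 1.11.5 and igraph 0.11.9 (Leiden, resolution 0.5, 2000 variable genes, 30 components, 15 neighbours). Symbols of 19673 of the 20034 genes, and of all 39 members, matched GENCODE M21 (GRCm38), which gave the transcript lengths. Near-identical transcripts were found with blastn 2.17.0 on both strands. The computation of ratios and thinning was tested on simulated counts, drawn without differences in composition between cells. That test does not measure how reliable the contrasts of small groups of cells are.

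Every member is named. In contrasts, members past 1.5-fold at 10 CPM or more are named, with 3 related genes per group by level and up to 4 per contrast. The 5 leading genes describe a cluster. Some genes that these rules name are left out and not reported here. Correlations are given for the 3 highest members at 10 CPM or more. Those of Hk3 were added after its values were seen. The members and lists were chosen with earlier results of these data known. The symbol Irg1 was dropped from the related list, as it is an older name of Acod1. Alternatives covered scale, pseudocount, filters, depth and clustering. No sample was left out, since there is 1 matrix.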

Additional observations from a re-analysis of the deposited data

How the results depend on the processing

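With 1 matrix and no replicate, the intervals cover counting error only, and no replicate could be left out. No paired analysis was possible because the columns carry no sample. Without thinning, 26 of the 39 genes had a count in at least 50% of cells, a value over all 6751 kept cells at their own depths. Isozyme shares, taken within the 39 genes, moved beyond their intervals under some settings while the leading isozyme of each reaction stayed the same. As a mean of values per cell, the share was 48.2% for Hk2, 61.0% for Pfkp, 98.06% for Aldoa and 99.93% for Eno1. Per kilobase it was 39.7% for Hk2, 58.9% for Pfkp, 98.96% for Aldoa, 99.94% for Eno1 and 99.80% for Ldha, and Pfkp gave 61.2% without the deepest 5% of cells. With CPM outside ribosomal protein, mitochondrial and rRNA-locus genes, 5 genes were past 2-fold between clusters. On that scale the counts past 1.5-fold became 0 higher and 1 lower in cluster 4, 1 higher and 3 lower in cluster 5, 1 higher in cluster 7 and 4 higher in cluster 9. With a pseudocount of 10 CPM, 0 genes were lower in cluster 1, where Hk3 was at -0.52. Among cells by Myc counts, 0 genes were lower when thinned to 10000 counts, 0 with at least 1 Myc count and 3 within clusters, and Hk1 changed sign to 0.11 at 10000 counts. The cause of these shifts was not tested. In clusterings added after the data were seen, the Hk3 ratio between clusters ranged from 3.68 to 8.06 and the cluster with most Acod1 counts held 70 to 95 of them.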
